A study of Mus musculus with 2 samples.

Results

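The messages of 10 genes of the tumor necrosis factor (TNF) system were followed through the cells of inflamed mouse lung. The genes were taken by symbol from the 32285 genes listed for both libraries, and each symbol had 1 row. They comprised the ligand genes Tnf, Lta, Ltb, Tnfsf13, Tnfsf13b, Tnfsf9 and Tnfsf14, the receptor genes Tnfrsf1a and Tnfrsf1b, and Tnfaip2, a gene that TNF induces. The LPS_MCZ library came from male ICR mice, an outbred stock, aged 6 to 8 weeks, with lung inflammation from lipopolysaccharide (LPS, a bacterial cell-wall component) and an intraperitoneal injection of miconazole (MCZ), an azole antifungal drug. The LPS library came from male ICR mice of the same age with LPS and no miconazole. For the dose of miconazole the labels give different figures, 0.2 mg/kg with the sample and 1 mg/kg in the protocol. Both groups carried LPS, and mice without LPS or with miconazole alone were not analysed here. Left lower lobes of a group's mice were pooled into a single library; how many mice there were, how much LPS they had and when they were sampled are not given in the sources used here. Treatment and library therefore cannot be told apart. Cells of 1 library share their source, so no difference below has a replicate check and no test was made.

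TNF is made as a membrane protein, mainly by macrophages and other leukocytes that have sensed microbial products, and is cut from the surface by the protease ADAM17. It binds TNFR1, encoded by Tnfrsf1a and present on most cells, and TNFR2, encoded by Tnfrsf1b and mainly found on leukocytes and endothelium. TNFR1 carries a death domain and signals through TRADD and RIPK1 to NF-kB or to cell death, whereas TNFR2 has no death domain and recruits TRAF proteins. Lymphotoxin alpha, encoded by Lta, forms a soluble trimer that binds both TNF receptors, or joins lymphotoxin beta, encoded by Ltb, on the cell surface to engage a receptor of its own. APRIL (Tnfsf13) and BAFF (Tnfsf13b) act on B-lineage cells, 4-1BB ligand (Tnfsf9) and LIGHT (Tnfsf14) costimulate lymphocytes. In the lung, alveolar macrophages are a well-known early source of TNF after LPS.

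Lta, Tnf and Ltb lie side by side on mouse chromosome 17 (build GRCm38, GENCODE annotation). Ltb occupies chr17:35194439-35196320 on the plus strand, Tnf chr17:35199381-35202007 on the minus strand and Lta chr17:35203165-35205351 on the minus strand. The gaps are 3060 bases between Tnf and Ltb and 1157 bases between Lta and Tnf. Tnfsf9 (chr17:57105325-57107757, plus strand) and Tnfsf14 (chr17:57189492-57194177, minus strand) lie on the same chromosome, 81734 bases apart. Tnfsf13 (chr11:69682846-69685784, minus strand) overlaps the read-through gene Tnfsfm13 on its own strand and the antisense gene Tnfsf13os. Tnfsfm13 was not among the counted genes, so reads of its messages may be counted for Tnfsf13. Tnfsf13os was counted under its own symbol. The remaining genes are Tnfrsf1a on chromosome 6, Tnfrsf1b on 4, Tnfsf13b on 8 and Tnfaip2 on 12.

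The 250 bases before the RefSeq start of 3 of the genes are shown because their levels carry the main differences below. Tnf and Ltb are neighbours with high levels in neutrophil-like cells, and Tnfsf13 differed most among the members in all cells together. Sequences are from RefSeq (GRCm38.p6), 5′ to 3′ along the gene's strand, at chr17:35202008-35202257 (minus) for Tnf, chr17:35194257-35194506 (plus) for Ltb and chr11:69685555-69685804 (minus) for Tnfsf13. Capitals mark matches, on either strand, to a TATA box (TATAAA), an AP-1 site (TGANTCA), a GC box (GGGCGG), the TGACG core of the cyclic AMP response element or the kappaB consensus.
Tnf: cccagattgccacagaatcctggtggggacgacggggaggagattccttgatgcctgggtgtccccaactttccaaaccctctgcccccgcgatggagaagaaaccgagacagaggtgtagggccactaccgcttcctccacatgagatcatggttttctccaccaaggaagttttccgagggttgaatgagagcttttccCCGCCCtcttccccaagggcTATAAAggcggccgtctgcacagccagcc
Ltb: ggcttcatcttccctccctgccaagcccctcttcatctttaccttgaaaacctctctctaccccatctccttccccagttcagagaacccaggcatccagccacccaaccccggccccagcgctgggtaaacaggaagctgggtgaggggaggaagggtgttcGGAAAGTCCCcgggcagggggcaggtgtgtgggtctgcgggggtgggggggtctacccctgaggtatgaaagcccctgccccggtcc
Tnfsf13: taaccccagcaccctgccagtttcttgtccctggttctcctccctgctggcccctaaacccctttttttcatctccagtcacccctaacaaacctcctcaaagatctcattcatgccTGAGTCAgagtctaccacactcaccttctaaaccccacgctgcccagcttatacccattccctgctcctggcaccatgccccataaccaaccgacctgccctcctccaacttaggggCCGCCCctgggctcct

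The Tnf window held a TATA box whose first base is at -29 from the start and a GC box at -49. The Ltb window held a kappaB match at -87 and no TATAAA. The Tnfsf13 window held an AP-1 match at -133, which reads as a match on both strands, and a GC box at -16. No matches overlapped in these windows. Of 32851 RefSeq windows of 300 bases (250 before and 50 after the start), 13.6% held TATAAA, 7.81% the AP-1 site, 8.46% the kappaB consensus, 35.7% the GC box and 20.8% the TGACG core. These matches are descriptions of the letters and were not related to the measured levels.

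After filtering, 8314 LPS_MCZ cells and 12075 LPS cells remained, at medians of 6180.0 and 5809 UMIs (unique transcript tags) per cell. The libraries shared 243 barcodes. Cells were clustered without the 10 genes and named from marker genes, giving neutrophil-like, alveolar macrophage-like, classical and nonclassical monocyte-like, conventional dendritic-like, T, B and NK cell-like, vascular endothelial-like, fibroblast-like and erythroid-like classes, each with none of its own markers at 0 in either library. Neutrophil-like cells numbered 4129 in LPS_MCZ and 7235 in LPS. They were spread over different clusters in the libraries: cluster 3, led by BC018473 and Schip1, held 60 LPS_MCZ cells and 2848 LPS cells, and cluster 2, led by Ngp and Mmp8, held 1678 LPS_MCZ cells and 949 LPS cells. Cluster 1 had all 8 neutrophil markers but the nonclassical monocyte marker Treml4 among its leading genes. It was kept by its number, a choice made after the clusters were seen, and held 20.3% of LPS_MCZ cells and 4.00% of LPS cells. UMIs of neutrophil markers were found in every class, as free RNA gives in droplet data. The 8 neutrophil markers summed to 66133 CPM in LPS_MCZ and 80636 CPM in LPS (UMIs per 1000000 UMIs of the class) even in erythroid-like cells. These cells are printed below beside other classes as cells that should lack the members. Among named classes only neutrophil-like cells had a higher sum, 213823 CPM in LPS_MCZ and 216964 CPM in LPS. Erythroid-like levels therefore cannot tell whether neutrophil-like cells, or classes with less neutrophil RNA, express a gene.

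Tnf had its highest level in both libraries in alveolar macrophage-like cells, phagocytes that live on the airspace surface. Summed over the class it reached 960.5 CPM in LPS_MCZ (6772 UMIs, 423 cells) and 888 CPM in LPS (7425 UMIs, 626 cells). In LPS_MCZ the order continued with cluster 1 (832 CPM), neutrophil-like cells (650.5 CPM), nonclassical monocyte-like cells (429 CPM) and classical monocyte-like cells (247 CPM), and the counting intervals of these 5 did not overlap. In LPS nonclassical monocyte-like cells (496 CPM) and cluster 1 (487 CPM) had overlapping intervals, followed by neutrophil-like cells (412 CPM), with conventional dendritic-like (339 CPM) and classical monocyte-like cells (320.5 CPM) again overlapping. Erythroid-like cells had 219.7 CPM in LPS_MCZ, overlapping classical monocyte-like cells, and 169.9 CPM in LPS. With haemoglobin UMIs left out, erythroid-like cells had 567 CPM in LPS_MCZ and 402 CPM in LPS, against 651 and 413 CPM in neutrophil-like cells. Neutrophil-like cells, the most numerous class, held 50.9% of the Tnf UMIs in LPS_MCZ and 55.0% in LPS, against 18.0% and 21.6% in alveolar macrophage-like cells. Cluster 1 held 18.5% of Tnf UMIs in LPS_MCZ and 2.50% in LPS.

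**Figure D1:**
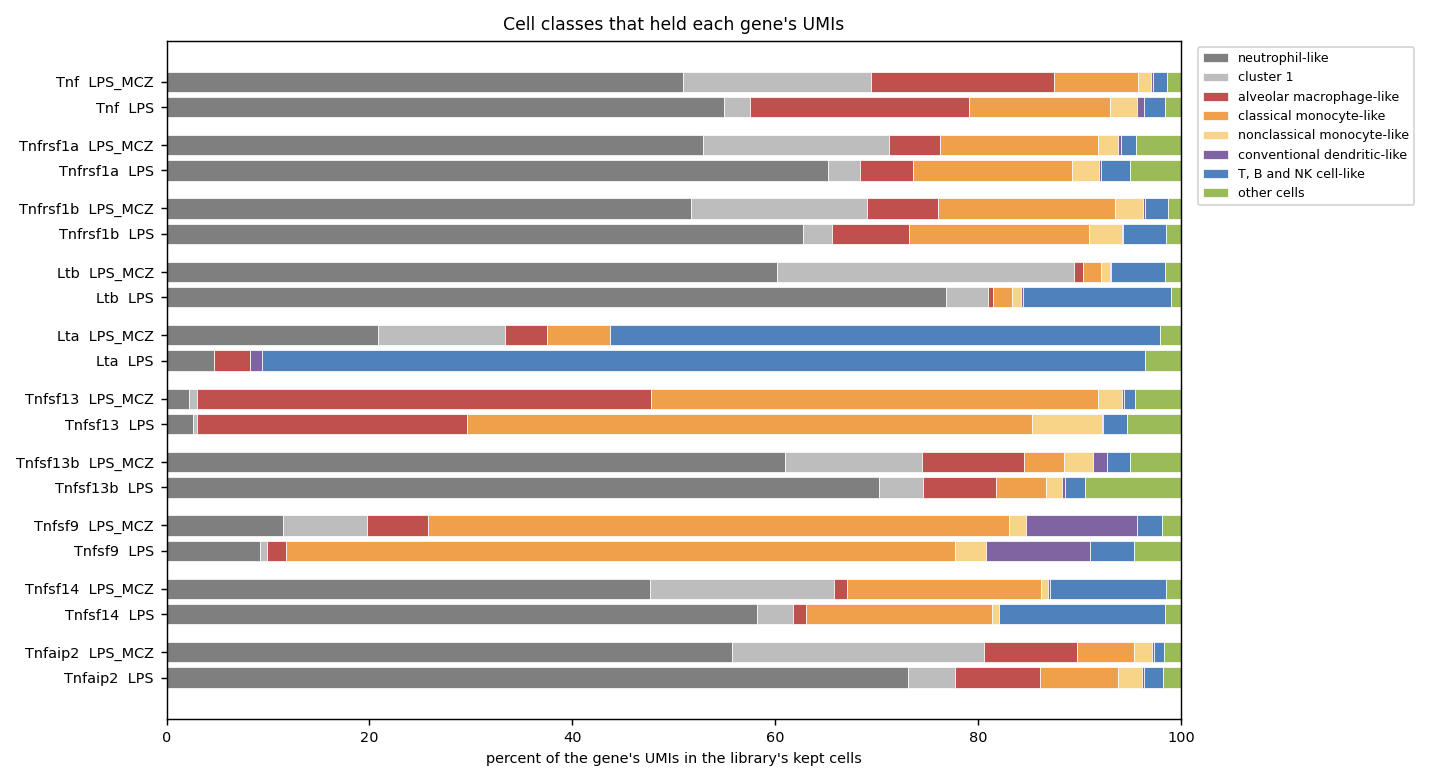
Horizontal bars show the percent of each gene's UMIs that each cell class held, with LPS_MCZ above LPS for each gene. Neutrophil-like cells held 50.9% of Tnf UMIs in LPS_MCZ and 55.0% in LPS, while alveolar macrophage-like and classical monocyte-like cells held most of Tnfsf13, T, B and NK cell-like cells most of Lta, and classical monocyte-like cells most of Tnfsf9.

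Between the libraries, neutrophil-like cells had more Tnf per UMI sequenced with miconazole. The level was 650.5 CPM in LPS_MCZ and 412 CPM in LPS, 1.58-fold higher, a log2 ratio of 0.66. The log2 ratio is of LPS_MCZ over LPS with 1 CPM added to each. Its interval of [0.63, 0.69], like all log2 intervals here, is an exact 95% interval of the ratio without the added CPM and covers counting error only. A log2 ratio past 0.5 in either direction, for a gene with at least 50 UMIs over both libraries in the class, is called higher or lower below. In neutrophil-like cells the median log2 ratio over all 10351 such genes was 0.10, and Tnf stood at 0.55 when that median was set to 0.

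The higher Tnf was seen in each of the 5 neutrophil-like clusters and in cluster 1. Cluster 0, led by the chemokine genes Ccl4 and Ccl3, had 1081 CPM in LPS_MCZ and 718 CPM in LPS (log2 ratio 0.59). Cluster 6, led by the stefin gene Stfa2, had 756 CPM in LPS_MCZ and 411 CPM in LPS (0.88). Clusters 2 and 14, led by granule genes, had ratios of 0.67 and 0.66, and cluster 1 had 0.77. Cluster 3 had the smallest ratio, 0.32, with 119 Tnf UMIs in LPS_MCZ. No small number of cells carried the sum: the 5 highest neutrophil-like cells held 1.27% of the class's Tnf UMIs in LPS_MCZ and 1.52% in LPS. With cells under 500 genes left out the ratio was 0.44.

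Alveolar macrophage-like cells had nearly equal Tnf in the libraries when all of them were summed, with a log2 ratio of 0.11 [0.07, 0.16]. The 5 highest cells held 16.3% of the class's Tnf UMIs in LPS_MCZ, 383 of them in 1 cell, and 12.6% in LPS. Such spread between cells is not covered by the counting intervals here or in the finer clusters below. A finer clustering, added after the data were seen, divided them into 3 clusters that the libraries filled differently, and Tnf was lower in LPS_MCZ within each. Cluster 25, led by Kcnip4 and Plet1, had 1230 CPM in LPS_MCZ (182 cells) and 2046 CPM in LPS (63 cells), a log2 ratio of -0.73 [-0.80, -0.66]. Cluster 28, led by Slc7a2 and the lipase gene Lpl, had 578 CPM in LPS_MCZ (109 cells) and 669.7 CPM in LPS (324 cells), a ratio of -0.21 [-0.29, -0.13]. Cluster 30, cells of few UMIs led by the heat shock genes Hspa1a and Hspa1b, had 932 CPM in LPS_MCZ (102 UMIs) and 1270.4 CPM in LPS (391 UMIs), a ratio of -0.45 [-0.78, -0.13]. The cluster with the highest Tnf in LPS, cluster 25, made up a larger part of the LPS_MCZ macrophages. With the 3 clusters weighted equally the ratio was -0.46, with each cell's own CPM averaged it was -0.27, and with every cell thinned to 2000 UMIs it was -0.015.

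**Figure D2:**
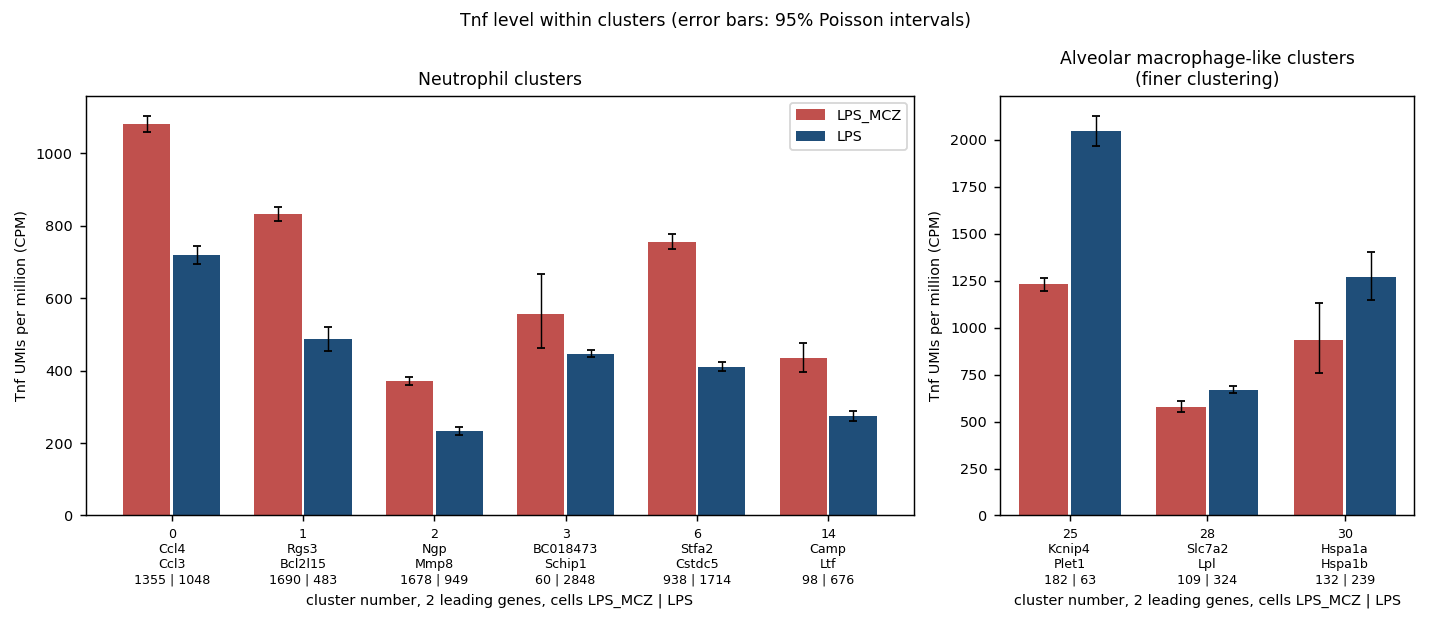
Bars give the Tnf level (CPM, UMIs per 1000000 UMIs) within the neutrophil clusters on the left and within the finer alveolar macrophage-like clusters on the right, LPS_MCZ left of LPS, with exact 95% Poisson intervals. The LPS_MCZ bar is the higher of the pair in all 6 neutrophil clusters (cluster 0: 1081 CPM in LPS_MCZ, 718 CPM in LPS) and the lower in all 3 macrophage clusters (cluster 25: 1230 CPM in LPS_MCZ, 2046 CPM in LPS).

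Classical monocyte-like cells, recruited from blood in inflamed lung, had 247 CPM of Tnf in LPS_MCZ and 320.5 CPM in LPS. The level was lower with miconazole by a log2 ratio of -0.38 [-0.44, -0.31], short of 0.5. Nonclassical monocyte-like cells, which patrol the vessel wall, had a ratio of -0.21 [-0.37, -0.05]. Conventional dendritic-like cells, the antigen-presenting cells that prime T cells, had 62 Tnf UMIs in LPS_MCZ and 213 in LPS (141 and 339 CPM, log2 ratio -1.27 [-1.70, -0.86]). These came from 10 of 33 LPS_MCZ cells and 25 of 57 LPS cells, and 5 cells held 71.0% of the UMIs in LPS_MCZ and 65.7% in LPS. In vascular endothelial-like cells Tnf was at 135 CPM in LPS_MCZ and 44.7 CPM in LPS (1.57 [1.08, 2.13]), but 1 of the 202 LPS_MCZ cells held 54 of the 123 UMIs, and 1 LPS cell held 12 of 43. Alveolar macrophage markers summed to 409 CPM in LPS_MCZ and 74.8 CPM in LPS in these endothelial-like cells and neutrophil markers to 20364 and 13754 CPM, and their part in the Tnf ratio was not tested.

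T, B and NK cell-like cells also had more Tnf in LPS_MCZ, at a level close to that of free RNA. T cell-like cells had 96.0 CPM in LPS_MCZ and 64.2 CPM in LPS (log2 ratio 0.57), B cell-like cells 85.3 and 55.0 CPM (0.62), and NK cell-like cells 102 and 70.4 CPM (0.53). A free-RNA level was computed for each class by letting its UMIs of the neutrophil genes S100a8 and S100a9 carry along the mix of the whole library. That mix itself had more Tnf in LPS_MCZ, 552 CPM against 386 CPM in LPS, and its part in the lymphocyte ratios was not tested. T cell-like cells had 0.92 times that level of Tnf in LPS_MCZ and 1.03 times in LPS, NK cell-like cells 0.79 and 1.15 times, B cell-like cells 1.40 and 1.35 times, and endothelial-like cells 1.58 and 1.42 times. By contrast alveolar macrophage-like cells had 20.9 times that level in LPS_MCZ and 36.5 times in LPS, and classical monocyte-like cells 4.91 and 9.72 times. Neutrophils supply this measure themselves, so it does not apply to them.

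**Figure D3:**
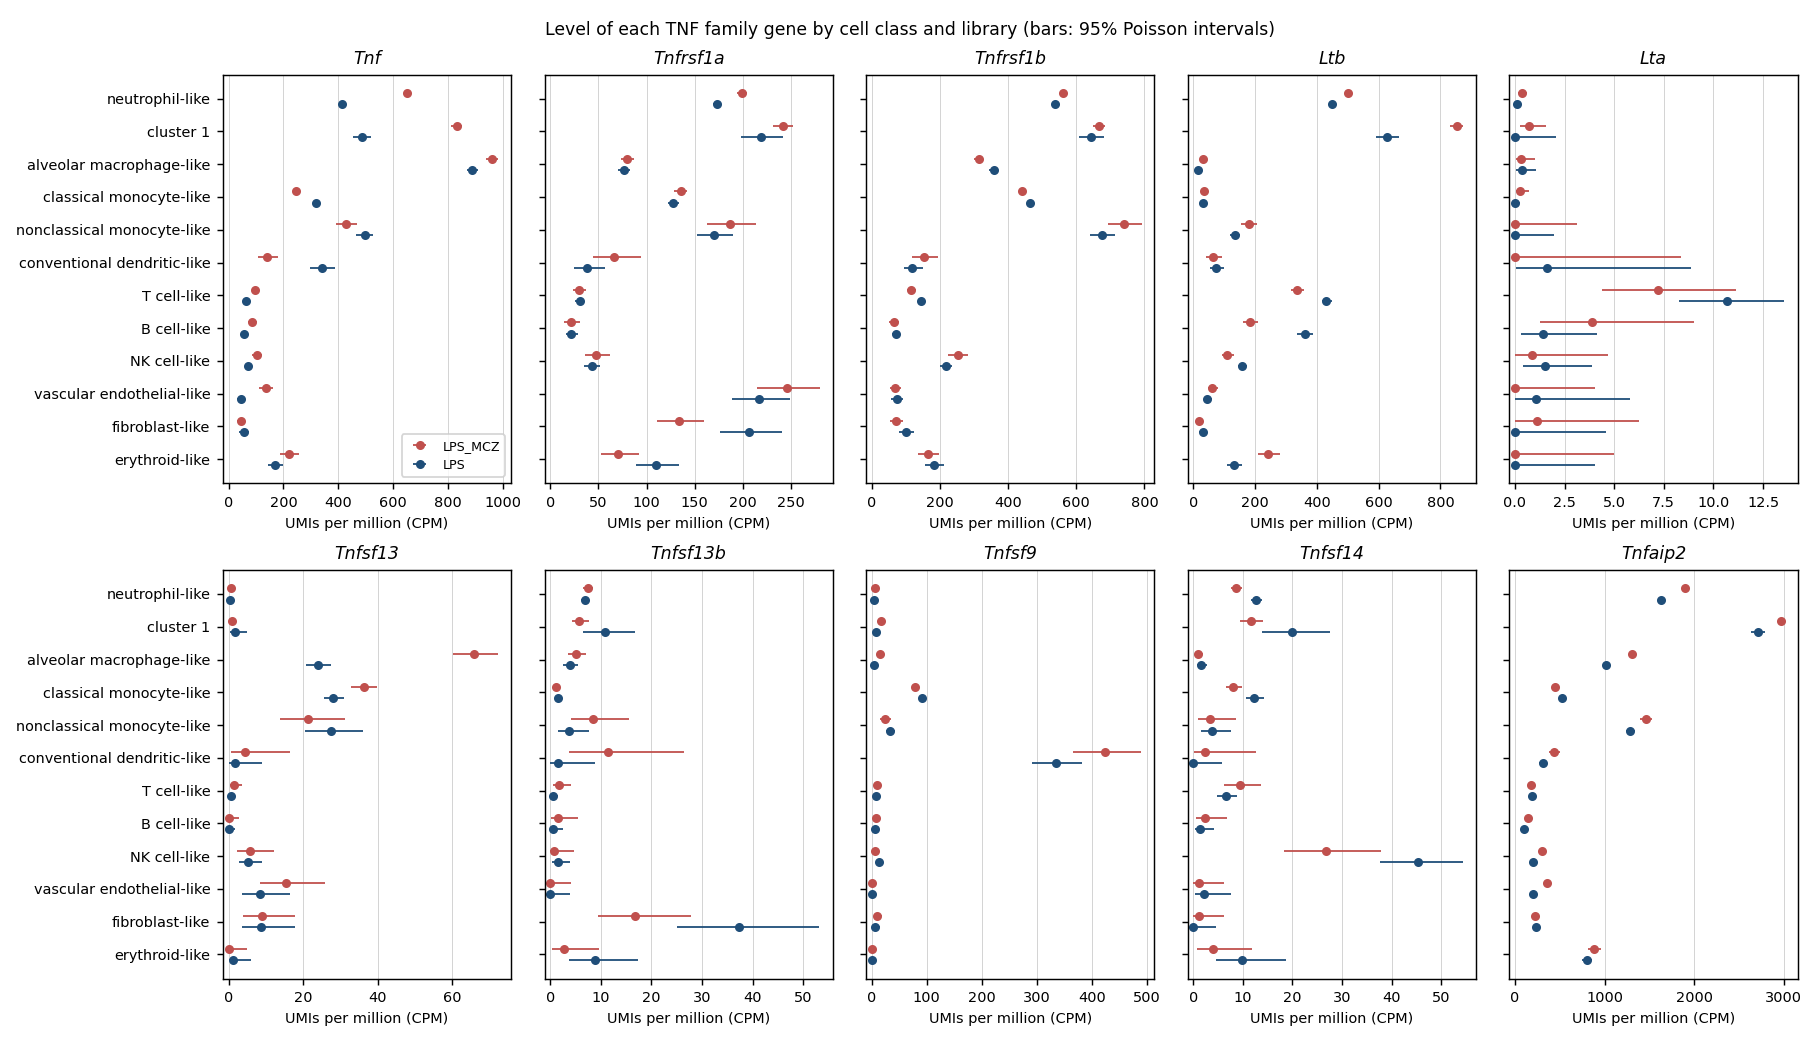
Points give each gene's level (CPM, UMIs per 1000000 UMIs of the class) in each cell class, LPS_MCZ above LPS, with exact 95% Poisson intervals and a separate axis for each gene. Tnf is highest in alveolar macrophage-like cells (960.5 CPM in LPS_MCZ, 888 CPM in LPS), Tnfsf13 stands apart in the LPS_MCZ macrophages (65.9 CPM, against 23.9 CPM in LPS), and Tnfsf9 is highest in conventional dendritic-like cells (424 CPM in LPS_MCZ, 335 CPM in LPS).

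The share of cells with at least 1 Tnf UMI was compared after thinning each cell to 2000 UMIs, which leaves out shallower cells (130 of 423 macrophage-like cells in LPS_MCZ and 238 of 626 in LPS; 74 and 174 neutrophil-like cells). In neutrophil-like cells the share was 57.6% [56.1, 59.1] in LPS_MCZ and 41.9% [40.7, 43.0] in LPS (exact binomial intervals). Before thinning these shares were 81.7% in LPS_MCZ and 66.3% in LPS. In alveolar macrophage-like cells they were 57.3% [51.5, 63.1] in LPS_MCZ and 53.9% [48.8, 58.9] in LPS, and in classical monocyte-like cells 32.4% [28.8, 36.1] and 36.9% [33.7, 40.1]. These intervals cover only the draw of cells within a library and narrow as cells become more numerous. Thinned neutrophil-like cells numbered 4055 in LPS_MCZ and 7061 in LPS, and macrophage-like cells 293 and 388. Whether the intervals overlap is therefore no comparison of the libraries or of the classes. Erythroid-like cells, which should lack the gene, had 22.0% in LPS_MCZ and 19.7% in LPS, with haemoglobin UMIs among the 2000. Their median depth before thinning was 6266 UMIs in LPS_MCZ and 6593 in LPS, near the 6478 and 5761 of neutrophil-like cells and below the 18396.0 and 12724.5 of macrophage-like cells. T cell-like cells, at 11.6% in LPS_MCZ and 7.07% in LPS, and B cell-like cells, at 10.2% and 4.03%, were under the erythroid-like share. Erythroid-like cells carried more neutrophil RNA, however. Neutrophil markers summed to 66133 CPM in LPS_MCZ and 80636 CPM in LPS there. The sums were 21899 and 20090 CPM in T cell-like and 13257 and 13768 CPM in B cell-like cells. A share under the erythroid-like one therefore cannot tell whether these lymphocytes express Tnf.

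**Figure D4:**
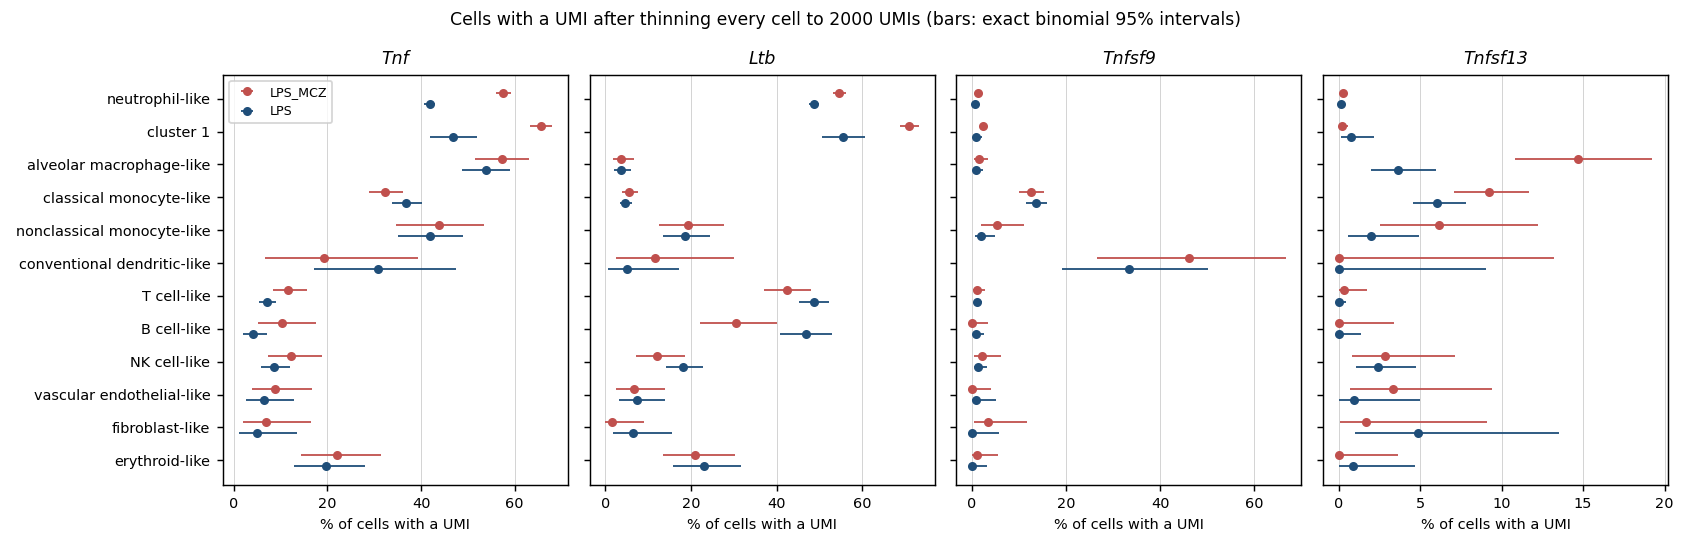
Points give the percent of cells with at least 1 UMI of Tnf, Ltb, Tnfsf9 and Tnfsf13 in each cell class after thinning every cell to 2000 UMIs, LPS_MCZ above LPS, with exact 95% binomial intervals. Tnf was found in 57.6% of LPS_MCZ and 41.9% of LPS neutrophil-like cells, against 22.0% and 19.7% of erythroid-like cells, and Tnfsf13 in 14.7% of LPS_MCZ and 3.61% of LPS macrophage-like cells.

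Ltb, the membrane-bound lymphotoxin chain, was measured mainly in neutrophil-like cells and cluster 1, with lower UMI totals in lymphocytes. Neutrophil-like cells had 499 CPM in LPS_MCZ and 448 CPM in LPS, and held 60.2% of its UMIs in LPS_MCZ and 76.9% in LPS. With haemoglobin UMIs left out, erythroid-like cells had 627 CPM of Ltb in LPS_MCZ and 314 CPM in LPS. The neutrophil-like levels counted that way were 500 and 448 CPM, below the erythroid-like level in LPS_MCZ and above it in LPS. Cluster 1 held 29.2% in LPS_MCZ and 4.15% in LPS, and T cell-like cells 3.83% and 10.1%. Cluster 1 had the highest level, 852 CPM in LPS_MCZ and 628 CPM in LPS, and Ltb was among its 10 leading genes although the clustering did not use it. The ratio was above 0 in all 6 neutrophil clusters, between 0.16 in cluster 2 and 0.44 in cluster 1, and past 0.5 in none. After thinning, 54.7% of LPS_MCZ and 48.8% of LPS neutrophil-like cells had an Ltb UMI, against 21 of 100 and 23.1% of erythroid-like cells.

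In lymphocytes Ltb was lower in LPS_MCZ. B cell-like cells had 183 CPM in LPS_MCZ and 360.5 CPM in LPS, 1.97-fold lower (log2 ratio -0.97 [-1.20, -0.77]). The make-up of that cluster also moved: its B cell markers summed to 4368 CPM in LPS_MCZ and 5771 CPM in LPS and its plasma cell markers, among its leading genes Igha and Jchain, to 4975 and 3436 CPM. T cell-like cells had 337 CPM in LPS_MCZ and 431 CPM in LPS (-0.35 [-0.46, -0.25]), and NK cell-like cells 109.8 CPM and 159 CPM (-0.53 [-0.83, -0.25]). T cell markers in NK cell-like cells summed to 466 CPM in LPS_MCZ and 986 CPM in LPS. In T cell-like cells T cell markers summed to 3211 CPM in LPS_MCZ and 3398 CPM in LPS. Markers of Il17-type lymphocytes summed to 755 and 491 CPM in that class, and those of basophils or mast cells to 252.5 and 32.5 CPM. The part of these marker differences in the Ltb ratios was not tested. After thinning, 30.6% [22.1, 40.2] of LPS_MCZ and 46.9% [40.8, 53.0] of LPS B cell-like cells had a UMI, with intervals for the draw of cells only. B cell-like cells stood at 4.63 times the free-RNA level in LPS_MCZ and 11.4 times in LPS, while erythroid-like cells had 243 CPM of Ltb in LPS_MCZ and 133 CPM in LPS. Alveolar macrophage-like cells had 30.8 CPM of Ltb in LPS_MCZ and 15.4 CPM in LPS (0.95), at 1.03 and 0.82 times the free-RNA level, and their thinned shares of 3.75% and 3.61% were below those of erythroid-like cells.

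Lta, whose product is the soluble lymphotoxin, was rare: 48 UMIs in LPS_MCZ and 85 in LPS over all cells. T cell-like cells held 20 of these in LPS_MCZ and 67 in LPS, or 7.21 CPM [4.41, 11.1] and 10.7 CPM [8.28, 13.6]. The log2 ratio of -0.51 [-1.36, 0.17] had an interval that spans 0. In T cell-like cells Lta stood at 54.0 times the free-RNA level in LPS_MCZ and 69.1 times in LPS. Erythroid-like and nonclassical monocyte-like cells had 0 UMIs in both libraries. Ltb and Lta lie on either side of Tnf and had their highest levels in different cells. These were cluster 1 for Ltb and T cell-like cells for Lta in both libraries. In LPS_MCZ the T cell-like interval for Lta overlapped that of B cell-like cells (3.88 CPM [1.26, 9.04], 5 UMIs). In LPS it overlapped that of conventional dendritic-like cells (1.59 CPM [0.0403, 8.88], 1 UMI).

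Tnfsf13, the gene of APRIL, a ligand that keeps plasma cells alive, was a macrophage and monocyte message. Alveolar macrophage-like and classical monocyte-like cells held 44.8% and 44.1% of its UMIs in LPS_MCZ, and 26.5% and 55.7% in LPS. Alveolar macrophage-like cells had 65.9 CPM in LPS_MCZ (465 UMIs) and 23.9 CPM in LPS (200 UMIs), 2.69-fold higher with a log2 ratio of 1.43 [1.22, 1.71]. After thinning, 14.7% [10.8, 19.3] of LPS_MCZ and 3.61% [1.99, 5.98] of LPS macrophage-like cells had a UMI, and before thinning 45.4% and 17.7%. Of the erythroid-like cells, 0 of 100 had one in LPS_MCZ, which allows a share of up to 3.00%, and 0.855% in LPS.

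The Tnfsf13 difference was smaller within each of the finer macrophage clusters than over the class. Cluster 25 had 94.2 CPM in LPS_MCZ and 76.3 CPM in LPS (log2 ratio 0.30 [-0.03, 0.65]), and cluster 28 had 26.9 CPM and 14.3 CPM (0.87 [0.46, 1.36]). Cluster 30 had 4 UMIs in LPS_MCZ and 11 in LPS (0.03 [-2.07, 1.79]). With the 3 clusters weighted equally the ratio was 0.40. Its neighbour Tnfsf12, the gene of the ligand TWEAK, was also higher in the class, with 26.1 CPM in LPS_MCZ and 11.4 CPM in LPS (1.13). The antisense gene Tnfsf13os had 25 UMIs in LPS_MCZ and 6 in LPS there, and its share in the Tnfsf13 difference was not tested. In classical monocyte-like cells Tnfsf13 was at 36.2 CPM in LPS_MCZ and 28.1 CPM in LPS (0.35 [0.17, 0.56]).

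Tnfsf13b, the gene of the B-cell survival factor BAFF, was low everywhere, with 356 UMIs in LPS_MCZ and 444 in LPS. Its highest level was in fibroblast-like cells, 16.8 CPM [9.42, 27.8] in LPS_MCZ and 37.3 CPM [25.1, 53.2] in LPS, from 15 and 30 UMIs, too few to be called, and its interval in LPS_MCZ overlapped those of other classes. Neutrophil-like cells held 61.0% of its UMIs in LPS_MCZ and 70.3% in LPS at 7.39 and 6.80 CPM, with a log2 ratio of 0.10 [-0.14, 0.37]. Cluster 1 had 5.74 CPM in LPS_MCZ and 10.8 CPM in LPS (-0.80 [-1.70, -0.06]).

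Tnfsf9, the gene of 4-1BB ligand, had its highest level in conventional dendritic-like cells, 424 CPM in LPS_MCZ and 335 CPM in LPS (log2 ratio 0.34 [0.05, 0.63]). In that class 5 cells held 68.4% of its UMIs in LPS_MCZ and 69.5% in LPS. The next level was in classical monocyte-like cells, 77.7 CPM in LPS_MCZ and 91.1 CPM in LPS (-0.23 [-0.35, -0.11]), which held 57.4% of its UMIs in LPS_MCZ and 65.9% in LPS. Neutrophil-like cells had 6.67 CPM in LPS_MCZ and 4.14 CPM in LPS (0.58 [0.39, 0.98]), and cluster 1 had 17.0 and 8.50 CPM (0.92 [0.23, 1.87]). Alveolar macrophage-like cells had 14.6 CPM in LPS_MCZ and 4.55 CPM in LPS (1.49 [1.13, 2.26]). Within their finer clusters the ratio was smaller, 0.78 [0.004, 1.76] in cluster 25 and 0.75 [-0.11, 1.96] in cluster 28. The latter came from 16 UMIs in LPS_MCZ and 20 in LPS, and cluster 30 had only 2 and 4. A single cell held 28 of the 103 macrophage UMIs in LPS_MCZ and another 11 of the 38 in LPS, and after thinning only 1.37% and 0.773% of macrophage-like cells had a UMI.

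Tnfsf14, the gene of LIGHT, was highest in NK cell-like cells and was lower with miconazole in several leukocyte classes. NK cell-like cells had 26.8 CPM in LPS_MCZ (32 UMIs) and 45.4 CPM in LPS (120 UMIs), a log2 ratio of -0.74 [-1.37, -0.19]. Neutrophil-like cells had 8.68 CPM in LPS_MCZ and 12.7 CPM in LPS (-0.50 [-0.77, -0.33]), classical monocyte-like cells 8.07 and 12.3 CPM (-0.55 [-0.97, -0.25]), and cluster 1 11.6 and 19.8 CPM (-0.73 [-1.35, -0.17]). T cell-like cells went the other way, 9.38 CPM in LPS_MCZ and 6.53 CPM in LPS, with an interval that spans 0 (0.46 [-0.25, 1.26]).

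The receptor genes differed past 0.5 only for Tnfrsf1a in fibroblast-like, conventional dendritic-like and erythroid-like cells. Tnfrsf1b, the gene of TNFR2, was highest in nonclassical monocyte-like cells, with 741.5 CPM in LPS_MCZ and 676 CPM in LPS (log2 ratio 0.13 [0.01, 0.26]). In LPS the level interval of [639, 714] overlapped that of cluster 1, at 644 CPM [607, 683]. Neutrophil-like cells had 561 CPM in LPS_MCZ and 539 CPM in LPS (0.06 [0.03, 0.09]), classical monocyte-like cells 442 and 466 CPM (-0.07 [-0.13, -0.02]), and alveolar macrophage-like cells 313 and 357 CPM (-0.19 [-0.27, -0.11]). Tnfrsf1b was past 0.5 in no class. After thinning, 62.0% of LPS_MCZ and 61.8% of LPS neutrophil-like cells had a Tnfrsf1b UMI, with intervals of [60.5, 63.5] and [60.6, 62.9].

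Tnfrsf1a, the gene of TNFR1, was the member with high levels outside the leukocytes. Vascular endothelial-like cells had 246 CPM in LPS_MCZ and 217 CPM in LPS (log2 ratio 0.18 [-0.10, 0.46]), with intervals overlapping those of cluster 1 in both libraries. Neutrophil-like cells had 199 CPM in LPS_MCZ and 173 CPM in LPS (0.20 [0.15, 0.25]). Fibroblast-like cells had 134 CPM in LPS_MCZ and 206 CPM in LPS (-0.62 [-0.98, -0.28]), from 72 and 90 cells. Under 12 other settings this ratio lay between -0.72 and -0.14 and was past 0.5 in 8. Fibroblast markers in the class summed to 13345 CPM in LPS_MCZ and 18742 CPM in LPS. Pericyte or smooth muscle markers summed to 2668 and 3262 CPM, and mesothelial markers to 1939 and 1500 CPM. The part of these marker differences in the ratio was not tested. Conventional dendritic-like cells had 65.8 CPM in LPS_MCZ and 38.2 CPM in LPS, from 29 and 24 UMIs (0.77 [-0.05, 1.63], an interval that spans 0). Erythroid-like cells had 70.1 CPM in LPS_MCZ and 109.6 CPM in LPS (-0.64). In alveolar macrophage-like cells 41 of 293 thinned cells in LPS_MCZ and 63 of 388 in LPS had a UMI, against 17 of 100 and 17 of 117 erythroid-like cells. Their level was 5.94 times the free-RNA level in LPS_MCZ and 8.90 times in LPS, while erythroid-like cells, which carried more S100a8 and S100a9, were at 0.75 and 1.18 times.

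Tnfaip2, a gene that TNF and LPS induce and whose product takes part in membrane nanotube formation, was highest in cluster 1, at 2972 CPM in LPS_MCZ and 2713 CPM in LPS. Neutrophil-like cells had 1901 CPM in LPS_MCZ and 1628 CPM in LPS (log2 ratio 0.22 [0.21, 0.24]), alveolar macrophage-like cells 1302 and 1017 CPM (0.36 [0.31, 0.40]), and classical monocyte-like cells 449 and 525 CPM (-0.22 [-0.27, -0.17]). In each of these 3 classes the Tnfaip2 ratio had the sign of the Tnf ratio; it was nearer to 0 than the Tnf ratio in neutrophil-like and classical monocyte-like cells and farther from 0 in macrophage-like cells. Within the finer macrophage clusters, however, Tnf was lower in LPS_MCZ in all 3, while Tnfaip2 had ratios of 0.19 in cluster 25, -0.12 in cluster 28 and 0.35 in cluster 30. Endothelial-like cells had 358 CPM in LPS_MCZ and 200.4 CPM in LPS (0.84 [0.58, 1.10]), at 1.58 times the free-RNA level in LPS_MCZ and 2.15 times in LPS. NK cell-like cells had 306 CPM in LPS_MCZ and 198 CPM in LPS (0.62 [0.43, 0.82]), at 0.89 and 1.09 times that level. The 5 highest endothelial-like cells held 49.2% of the class's Tnfaip2 UMIs in LPS_MCZ and 38.9% in LPS. In NK cell-like cells the 5 highest held 52.9% in LPS_MCZ and 32.9% in LPS, a spread that the intervals do not cover. With haemoglobin UMIs left out, erythroid-like cells had 2287 CPM of Tnfaip2 in LPS_MCZ and 1898 CPM in LPS. Both values were above the 1903 and 1630 CPM of neutrophil-like cells counted that way.

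Counted over the 10 genes in the named classes other than erythroid-like cells, 20 of 65 ratios with enough UMIs were past 0.5. The share of all genes past 0.5 in the same direction, among those with at least 50 UMIs, is given beside each class's count. In neutrophil-like cells 8 of the 10 genes had enough UMIs. Of these, 2 were higher (Tnf and Tnfsf9; 11.4% of all genes) and 1 lower (Tnfsf14; 4.52% of all genes). In alveolar macrophage-like cells 3 of 8 were higher (Tnfsf13, Tnfsf9 and Ltb; 12.3% of all genes) and 0 lower (5.33%). In classical monocyte-like cells 0 of 8 were higher (4.68% of all genes) and 1 lower (Tnfsf14; 3.87%). In nonclassical monocyte-like cells 0 of 7 were past 0.5 (8.84% of all genes were higher and 5.80% lower), and in conventional dendritic-like cells 1 of 6 was higher (Tnfrsf1a; 19.0%) and 1 lower (Tnf; 17.1%). T cell-like cells had 1 of 8 higher (Tnf; 6.86%) and 1 lower (Lta; 4.24%), B cell-like cells 1 of 5 higher (Tnf; 11.3%) and 1 lower (Ltb; 7.97%), and NK cell-like cells 2 of 6 higher (Tnf and Tnfaip2; 6.15%) and 2 lower (Ltb and Tnfsf14; 8.30%). Endothelial-like cells had 2 of 5 higher (Tnf and Tnfaip2; 10.3%) and 0 lower (9.88%), fibroblast-like cells 0 of 4 higher (9.80%) and 1 lower (Tnfrsf1a; 15.5%), and cluster 1 had 2 of 8 higher (Tnf and Tnfsf9; 23.3%) and 2 lower (Tnfsf13b and Tnfsf14; 10.4%). Over all cells, which mixes class sizes with levels, 2 of 10 were higher (Tnf at 0.51 and Tnfsf13 at 0.78; 4.94% of all genes) and 0 lower (3.04%). The median log2 ratio over the members with enough UMIs was 0.18 in neutrophil-like, 0.35 in alveolar macrophage-like and -0.15 in classical monocyte-like cells, beside medians of 0.10, 0.03 and 0.04 over all genes. These counts rest on few genes per class, and nothing particular to the family is read from them.

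**Figure D5:**
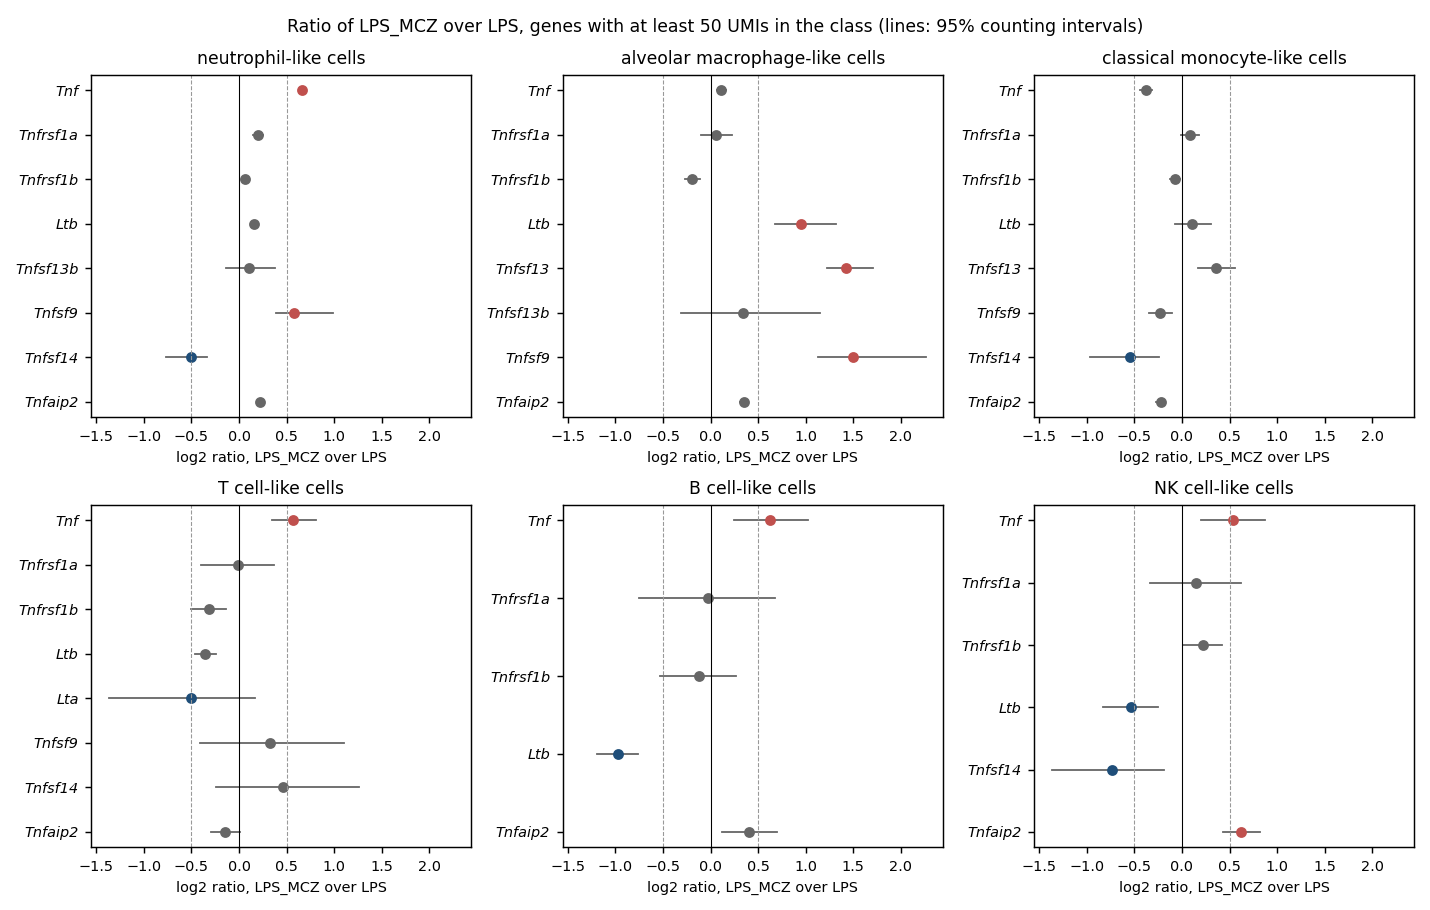
Points give the log2 ratio of LPS_MCZ over LPS in 6 cell classes for each gene with at least 50 UMIs there, with 95% counting intervals; dashed lines mark 0.5 in either direction, and genes past them are coloured red (higher) or blue (lower). Tnf is at 0.66 in neutrophil-like, 0.11 in alveolar macrophage-like and -0.38 in classical monocyte-like cells, and Ltb is at 0.16 in neutrophil-like and -0.97 in B cell-like cells.

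Genes around the 10 were taken from 5 lists of 81 genes. All-gene medians were 0.10 in neutrophil-like, 0.03 in alveolar macrophage-like and 0.04 in classical monocyte-like cells, and shares of all genes past 0.5 stand beside the counts. Of 11 genes of TNF shedding and message turnover, 10 had enough UMIs in neutrophil-like cells and 1 was higher (11.4% of all genes), Zfp36l2 at 82.7 CPM in LPS_MCZ and 41.2 CPM in LPS (log2 ratio 0.99), which encodes a protein that binds AU-rich messages. In alveolar macrophage-like cells 2 of 10 were higher (12.3% of all genes), its relatives Zfp36l1 (0.65) and Zfp36 (0.64); Zfp36 encodes tristetraprolin, which promotes decay of the Tnf message. Zfp36 had 734 CPM in LPS_MCZ and 472 CPM in LPS there. The list medians were 0.13 in neutrophil-like and 0.15 in alveolar macrophage-like cells, against 0.10 and 0.03 over all genes. In classical monocyte-like cells none of 10 was past 0.5 (4.68% of all genes were higher and 3.87% lower). The list median there was -0.07, against 0.04.

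Of 24 genes of the TNF receptor signalling complex, 23 had enough UMIs in neutrophil-like cells, 4 were higher (11.4% of all genes) and 1 lower (4.52%; median 0.25). Map3k14, the kinase of the noncanonical NF-kB pathway, had 67.0 CPM in LPS_MCZ and 36.3 CPM in LPS (0.87), the adaptor gene Traf5 was at 0.70, and Casp8, the gene of caspase 8, had 57.6 CPM in LPS_MCZ and 90.5 CPM in LPS (-0.64). The macrophage-like class had 1 of 24 lower (5.33% of all genes), Rnf31, a subunit gene of the linear ubiquitin ligase (-0.65, list median -0.03). In classical monocyte-like cells 0 of 24 were past 0.5, with a median of -0.07 (4.68% of all genes were higher and 3.87% lower).

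Among 15 TNF-induced genes and feedback inhibitors, 2 were higher and 1 lower of 15 in neutrophil-like cells (11.4% and 4.52% of all genes; median 0.17). Within the macrophage-like class 0 and 2 of 12 were past 0.5 (12.3% and 5.33%; median -0.18), and in classical monocyte-like cells 0 and 3 of 14 (4.68% and 3.87%; median -0.13). Sod2, the gene of mitochondrial superoxide dismutase, was lower both in neutrophil-like cells, 1123 CPM in LPS_MCZ and 1657 CPM in LPS (-0.56), and in alveolar macrophage-like cells, 948 and 1635 CPM (-0.79). Tnfaip8 was higher in neutrophil-like cells (0.58). In classical monocyte-like cells the adhesion molecule gene Vcam1 (-0.88) and the neutrophil-attracting chemokine gene Cxcl1, at 237 CPM in LPS_MCZ and 382 CPM in LPS (-0.68), were lower.

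Of 10 other ligand genes, 2, 3 and 4 had enough UMIs in neutrophil-like, alveolar macrophage-like and classical monocyte-like cells. In neutrophil-like cells 0 were past 0.5 (11.4% of all genes were higher and 4.52% lower). In macrophage-like cells 1 was higher (12.3%) and 1 lower (5.33%), and in classical monocyte-like cells 0 were higher (4.68%) and 2 lower (3.87%). Tnfsf15, the gene of the ligand TL1A, was lower in macrophage-like cells, 6.38 CPM in LPS_MCZ and 27.4 CPM in LPS (-1.94 [-2.60, -1.64]), and in classical monocyte-like cells, with 15 and 47 UMIs (-0.92). Tnfsf8, the gene of CD30 ligand, was lower in classical monocyte-like cells, with 11 UMIs in LPS_MCZ and 46 in LPS (-1.13). Of 21 other receptor genes, 2 were higher and 2 lower of 17 in neutrophil-like cells (11.4% and 4.52% of all genes), among the lower Tnfrsf26 (-0.90) and Tnfrsf9 (-0.69), which encodes the receptor of 4-1BB ligand and had 30 UMIs in LPS_MCZ and 104 in LPS. In alveolar macrophage-like cells 1 of 12 was higher (12.3% of all genes), Relt (0.66). There 1 of 12 was lower (5.33% of all genes), the costimulatory receptor gene Cd40 (-0.89, 39 UMIs in LPS_MCZ and 93 in LPS).

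For each member with at least 500 UMIs, the genes with the most similar levels were sought over 10 named classes in both libraries (20 points, which share libraries and depth) among 10203 genes, by Pearson's r of log2(CPM + 10). Tnf was most like Csf2rb (0.97), a receptor subunit gene for GM-CSF, Aldh3b1 (0.96) and Pilra (0.95). Tnfrsf1b was most like Fcer1g (0.96), Lcp2 (0.95) and Cers6 (0.94), and Tnfaip2 like Pfkfb4 (0.95), Cd300lf (0.94) and Pilra (0.94). Ltb was most like Ripor2 (0.94), Letm2 and 2310010J17Rik (both 0.91). Tnfsf13 was most like Acaa1a, Fnip2 and Atg4c (all 0.92), Tnfsf9 like C3ar1 (0.91) and Mcub (0.90), and Tnfsf14 like Il18rap (0.88), Hgsnat (0.87) and Cst7 (0.86). Tnfrsf1a was most like Arhgap23 (0.89), Il13ra1 (0.88) and App (0.87), and Tnfsf13b like Pde1a, Pi16 (both 0.89) and Acta2 (0.89). Pilra was the gene named for both Tnf and Tnfaip2.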

How the data were processed

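The deposited values are unnormalized counts of UMIs per gene and cell barcode from 10x 3' V3 libraries, which the authors made with Cell Ranger (7.0.0 per the file headers) after bcl2fastq 2.20, on the mouse build mm10 (GRCm38), per the submitters' processing notes. Their handling of intronic reads is not given in the sources used here. Deposited barcodes numbered 8500 in LPS_MCZ (68467793 UMIs) and 12577 in LPS (90597705 UMIs). Every deposited barcode had at least 500 UMIs. Barcodes with at least 200 genes, 500 UMIs and at most 20% mitochondrial UMIs were kept; 158 LPS_MCZ and 481 LPS barcodes failed the gene limit and 47 and 34 the mitochondrial limit, some of them both. The doublet caller's automatic threshold marked 0 LPS_MCZ cells and 1 LPS cell, so it did not work; that 1 cell was removed, other doublets were not, and removal of the 553 LPS_MCZ and 1167 LPS cells with the highest scores is an alternative.

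Cells of both libraries were scaled to 10000 UMIs and clustered together (scanpy 1.11.5, igraph 0.11.9; 2000 variable genes without the 10 members, 30 components, 15 neighbours, Leiden resolution 1.0, no batch correction), giving 17 clusters. A cluster took the name of the one of 25 marker lists with the highest mean log2 ratio among lists with at least 3 markers raised. It stayed unnamed where a different class had more markers than its own among its 10 leading genes, or where its median UMI count was under 1/3 of the library's and they held no own marker or as many of another class. Leading markers of another class were present in the classical monocyte-like and endothelial-like clusters (1 each) and the B cell-like cluster (2), and the endothelial-like cluster had 0.284 of the library's median UMI count. Cluster 1 and cluster 4 (265 LPS_MCZ and 462 LPS cells, led by Scgb1a1 and Sftpc) stayed unnamed; both decisions were settled after the clusters were seen. UMIs were summed per class and library and given as CPM (UMIs per 1000000 UMIs of the class), with exact Poisson intervals at 95% (scipy 1.17.1). Intervals cover counting error only, since each group is 1 library and cells are not replicates; p-values were therefore not computed. The free-RNA level was devised after the data were seen. Shares with 0 cells are given with the limit that 3 cells allow. Sequences were matched for 9 of the 10 genes; 32235 of 32285 gene IDs matched the annotation. Named pathway genes were those past 0.5 with at least 50 UMIs, the 4 with the largest ratios in each direction in the neutrophil-like, alveolar macrophage-like and classical monocyte-like classes. For the likeness of patterns, the 3 genes with the highest r were named for each member, except that 1 is not reported here. The members and gene lists were chosen with earlier results of these data known. The ratios and their intervals were tested on simulated Poisson counts of the neutrophil-like and alveolar macrophage-like sums, without spread between cells or libraries. Clustering, naming, thinning, the free-RNA level and the likeness of patterns were not simulated.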

Additional observations from a re-analysis of the deposited data

Results flagged for a closer look

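Tnf differed between the libraries by more than 0.5 on the log2 scale in opposite directions in different classes. It was higher in LPS_MCZ in neutrophil-like cells (0.66), vascular endothelial-like cells (1.57) and the T (0.57), B (0.62) and NK (0.53) lymphoid classes, and lower in conventional dendritic-like cells (-1.27). The difference between classes was not tested. In the lymphoid classes the level was between 0.79 and 1.40 times the free-RNA level. In endothelial-like cells 1 cell held 43.9% of the LPS_MCZ UMIs, and in conventional dendritic-like cells 5 cells held 71.0% in LPS_MCZ and 65.7% in LPS.

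Ltb likewise differed in opposite directions: it was lower in LPS_MCZ in the B (-0.97) and NK (-0.53) lymphoid classes and higher in alveolar macrophage-like cells (0.95). This difference between classes was not tested. The macrophage-like level was 1.03 times the free-RNA level in LPS_MCZ and 0.82 times in LPS.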

How the results depend on the processing

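The 65 log2 ratios were recomputed under 15 other settings, 3 of them chosen after seeing the data (2 Leiden iterations, cluster 1 counted as neutrophil-like, clusters weighted equally). Naming the low-UMI clusters, among these settings, left every recomputed class with the same cells. Its values therefore could not change, and they count as unchanged below. Of 787 values, 639 stayed within the interval of the main value, 141 moved outside it without a called ratio changing sign, and 7, from 5 called ratios, had the opposite sign. Besides ratios, the 787 hold Tnf shares and Tnf levels of neutrophil-like, alveolar macrophage-like and classical monocyte-like cells, each judged against its own interval. Not every setting gave a value for each ratio: the 20 called ratios had 8 to 15, and the conventional dendritic-like class had no cells in 3 settings. Over the values obtained, 15 of the 20 kept their sign and 3 stayed past 0.5. Tnf in neutrophil-like cells (0.66) was 0.44 with at least 500 genes per cell, 0.60 with the highest doublet scores removed, 0.73 at resolution 0.5, 0.69 after thinning, 0.55 with the median gene set to 0, 2.92 with the erythroid-like level subtracted (haemoglobin UMIs left out of both classes), 0.73 with cluster 1 included and 0.62 with clusters weighted equally. Tnf in alveolar macrophage-like cells (0.11) was -0.27 as the mean of cells' own CPM, -0.015 after thinning, -0.31 after the subtraction and -0.46 with clusters weighted equally. Tnfsf13 in those cells (1.43) was 0.94 as the mean of cells' own CPM, 2.21 after thinning, 1.16 with 10 CPM added and 0.40 with clusters weighted equally. Tnf in classical monocyte-like cells (-0.38) stayed within its interval in all 12 settings that gave a value. The sign changed for Tnfsf9 in neutrophil-like cells after the subtraction (-0.29), for Ltb in macrophage-like cells (-0.21) and Lta in T cell-like cells (0.13) after thinning, for Tnf in B cell-like cells with doublet scores removed (-0.31), at resolution 0.5 (-0.31) and with the libraries clustered separately (-0.20), and for Tnf in conventional dendritic-like cells with the members among the variable genes (0.26). The cause was not tested. The subtraction could be made for 16 ratios, because 49 were at or below the erythroid-like level without haemoglobin in a library. Erythroid-like cells carried more neutrophil RNA than most classes, so this does not show that those classes lack the genes. Depth limits Lta, Tnfsf13b and Tnfsf14, and the few dendritic-like, endothelial-like and fibroblast-like cells. No paired analysis was possible because each group is 1 library.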

Other observations

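After thinning to 2000 UMIs, at least 3 of the 10 genes had a UMI in 82.4% of LPS_MCZ and 67.1% of LPS cells of cluster 1, in 65.4% and 56.1% of neutrophil-like cells and in 37.9% and 30.9% of alveolar macrophage-like cells. In erythroid-like cells these shares were 21 of 100 in LPS_MCZ and 24.8% in LPS. The unnamed cluster 4 had 110.3 CPM of Ltb in LPS_MCZ and 41.5 CPM in LPS (log2 ratio 1.39), and 18.2 CPM of Tnfsf9 in LPS_MCZ and 48.0 CPM in LPS (-1.35). Its 5 highest cells held 55.1% of the Ltb UMIs in LPS_MCZ and 54.5% in LPS. Ltb was at 1.61 times the free-RNA level in LPS_MCZ and 1.42 times in LPS. Tnfsf9 had 21 UMIs in LPS_MCZ, 13 of them in 1 cell, and 89 UMIs in LPS. The part of free RNA and of single cells in these ratios was not tested.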
